A study of Mus musculus with 2 samples.

Results

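Described here are 7 of the 31053 genes in the count tables: the G-protein-coupled receptors Ffar2 (GPR43), Ffar3 (GPR41) and Hcar2 (GPR109a), the transporters Slc16a1 (MCT1), Slc16a3 (MCT4) and Slc5a8 (SMCT1), and Bsg (basigin). They were chosen by symbol as genes that sense or carry butyrate, and not by their levels. Single-cell RNA was measured in total cells of the mediastinal lymph nodes (MedLNs), which drain the lung, of WT C57/B6J mice with ovalbumin (OVA)-induced asthma. One library came from mice without butyrate and 1 from mice that received it (labelled C4), with 4 mice pooled in each. All mice were aged 5 to 13 weeks, received 50 µg OVA on days 0 and 7, were challenged with OVA on days 14 to 16, and were analysed on day 17. The study describes sodium butyrate in drinking water or by daily gavage. Which route, dose and start these mice had is not given in the sources used here. Each condition has a single library, so no value has a replicate and no test was made, and the mice cannot be told apart within a pool. The 95% intervals given in parentheses, exact Poisson for levels and exact binomial (Clopper-Pearson) for shares and ratios, cover counting error only. For levels and ratios they take UMIs of the same cell as independent, so they are too narrow where UMIs come from few cells.

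Butyrate is a short-chain fatty acid that gut bacteria make from fibre. Outside the cell it is sensed by GPR43, GPR41 and GPR109a, which signal through inhibitory G proteins, and inside the cell it inhibits histone deacetylases. MCT1 and MCT4 move monocarboxylates such as lactate, pyruvate and butyrate together with a proton, SMCT1 moves them with sodium, and basigin is the membrane glycoprotein that brings MCT1 and MCT4 to the cell surface.

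The library without butyrate held 9681 cells and 59176459 unique molecular identifiers (UMIs, each standing for 1 captured transcript), and the library with butyrate held 8932 cells and 58381292 UMIs. After filters 8774 and 8013 cells remained, with medians of 5075 and 5649 UMIs per cell. The libraries shared 25 cell barcodes. Cells were placed in lineages by the UMIs of marker genes, which gave 4186 and 3964 B cells, 1104 and 950 CD4+ T cells, and 2022 and 1932 CD8+ T cells. Throughout, the value without butyrate comes first and the value with butyrate second. B cell markers summed to 5734 and 5973 UMIs per 1000000 UMIs of those cells (CPM) in B cells, and to 37.7 and 39.4 CPM in CD4+ T cells and 46.7 and 48.8 CPM in CD8+ T cells. The T cell values give B cell RNA read outside its own lineage, and they are capped, since a cell had to hold 80% of its marker UMIs in 1 lineage to be placed there.

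In the mouse genome (GRCm38) Ffar2 lies at chr7:30818348-30823775 and Ffar3 at chr7:30854330-30856178, both on the minus strand and 30554 bases apart. By coordinate Ffar1, a receptor for longer fatty acids, lies 1211 bases beyond Ffar3, and Cd22, a B cell inhibitory receptor, lies 3837 bases beyond Ffar1. Hcar2 lies at chr5:123863570-123865499 on the minus strand. The remaining members lie on the plus strand, Slc16a1 at chr3:104638668-104658462, Slc16a3 at chr11:120948480-120960868, Slc5a8 at chr10:88885992-88929515 and Bsg at chr10:79704491-79711969. Slc16a1 shares its strand and part of its span with the gene models Gm43581 and Gm43585, so reads there may be split. Promoter sequence from RefSeq (GRCm38.p6) was at hand for 5 of the 7 members, and 3 are printed because these genes stood higher in cycling than in non-cycling cells of a lineage described below. Each is the 250 bases before a start site, read 5′ to 3′ on the gene's strand, at chr7:30823776-30824025 on the minus strand for Ffar2, and at chr3:104638414-104638663 and chr11:120948817-120949066 on the plus strand for Slc16a1 and Slc16a3. Capitals mark CACGTG, the E-box that MYC and related factors recognize, in Ffar2 and Slc16a1, and ACGTG, the core of hypoxia response elements, in Slc16a3.
Ffar2: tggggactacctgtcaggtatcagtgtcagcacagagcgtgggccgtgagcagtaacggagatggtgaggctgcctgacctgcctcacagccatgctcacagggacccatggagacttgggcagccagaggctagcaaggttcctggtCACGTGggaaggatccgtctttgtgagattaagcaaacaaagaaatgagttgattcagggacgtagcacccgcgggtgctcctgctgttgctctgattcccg
Slc16a1: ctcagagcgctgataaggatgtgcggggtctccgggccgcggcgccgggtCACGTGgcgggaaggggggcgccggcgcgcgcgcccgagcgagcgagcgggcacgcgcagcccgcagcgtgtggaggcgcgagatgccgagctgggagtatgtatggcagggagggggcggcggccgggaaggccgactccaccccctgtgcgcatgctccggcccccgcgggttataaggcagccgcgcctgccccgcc
Slc16a3: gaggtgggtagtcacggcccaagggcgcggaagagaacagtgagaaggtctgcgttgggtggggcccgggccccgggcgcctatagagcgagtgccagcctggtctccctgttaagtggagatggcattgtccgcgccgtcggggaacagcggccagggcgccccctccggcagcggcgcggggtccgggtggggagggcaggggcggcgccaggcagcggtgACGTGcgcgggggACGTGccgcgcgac
The printed Ffar2 and Slc16a1 windows each held 1 CACGTG, and the Slc16a3 window held 2 ACGTG and no CACGTG. The Slc16a3 window lies before its RefSeq start site but inside the span given above for the gene, which starts at chr11:120948480. The Ffar2 window printed is that of the outermost of its 4 RefSeq start sites, and the windows of the other three, at chr7:30821649-30821898, chr7:30821193-30821442 and chr7:30821140-30821389, held neither motif. Each CACGTG also reads as ACGTG on both strands. Among 32851 promoters of the same length, 6.02% held CACGTG and 16.6% held ACGTG on either strand. A match of these letters is a description of the sequence only.

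Most Ffar2 UMIs lay in B cells, the lineage with the most cells in these nodes, and per UMI its level there was above that of CD4+ and CD8+ T cells. Of its 133 UMIs without butyrate 84.2% lay in B cells, and of its 150 UMIs with butyrate 77.3% did. The B cells held 112 and 116 UMIs, a level of 5.06 CPM (4.17 to 6.09) and 5.34 CPM (4.42 to 6.41). CD8+ T cells held 0 and 3 Ffar2 UMIs, and CD4+ T cells held 1 and 1. Without butyrate B cells were thus at least 24.3-fold higher than CD8+ T cells, taking 3 counts as the floor of the CD8+ sum and the B cell count as read. With counting error in both sums the lower bound of that log2 ratio was 4.28. With butyrate the log2 ratio was 4.62 (3.25 to 7.13). The log2 ratio of B cells over CD4+ T cells was 4.48 (2.55 to 10.37) and 4.51 (2.58 to 10.40).

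Few B cells showed the receptor, 88 of 4186 (2.10%, 1.69 to 2.58) and 87 of 3964 (2.19%, 1.76 to 2.70), although B cells were sequenced less deeply than CD8+ T cells, with medians of 4395 and 4612 UMIs against 6529.5 and 7724. No CD8+ T cell of 2022 had a Ffar2 UMI without butyrate, which allows a share of cells with a UMI of up to 0.148% and does not limit the share that expressed the gene, and 3 of 1932 did with butyrate. Of the Ffar2+ B cells, 69 and 64 held 1 UMI, 16 and 17 held 2, and 3 and 6 held 3 or more. Cd3e, a T cell receptor subunit, was found in 3 and 2 of them. With each cell reduced to 2000 UMIs in a single random draw, 0.773% of B cells without and 1.09% with butyrate held a Ffar2 UMI.

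Between the libraries the Ffar2 level in B cells gave a log2 ratio, with butyrate over without, of 0.08 (−0.31 to 0.47). In the reduced cells the log2 ratio was 0.62 (−0.05 to 1.32). Neither interval leaves out 0. The ratio in the reduced cells came from a single random draw of UMIs. A second draw was made for levels only. In it the level was 3.68 CPM with butyrate and no lower than 3.87 CPM without, so the direction changed with the draw. Over all alternatives the Ffar2 level in B cells ran from 3.87 to 8.67 CPM without butyrate and from 3.68 to 8.99 CPM with it. No direction could be read. The first interval covers counting error only, so its upper end of 0.47 is no limit on the difference.

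Ffar2 stood higher in cycling B cells, those with at least 3 UMIs of Mki67, Top2a, Birc5, Cdk1 and Ube2c. There were 79 and 37 such cells, at 11.2 and 17.6 CPM of Ffar2, against 4.58 and 4.98 CPM in the other B cells. The log2 ratio of cycling over non-cycling B cells was 1.33 (0.48 to 2.03) and 1.88 (0.78 to 2.72). Cycling T cells held 3 and 9 Ffar2 UMIs, 1.48 and 5.50 CPM, against 0.232 and 0.373 CPM in non-cycling T cells. With butyrate 6 of the 9 came from a single cell that also held Cd79a, a B cell marker. B cells with a UMI of Myc, a growth regulator, differed from those without by 0.37 (−0.22 to 0.93) and 0.15 (−0.46 to 0.71) on the log2 scale, so no difference could be read there.

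Outside the B cells few Ffar2 UMIs were read, and in small lineages some levels were as high as in B cells or higher. The γδ T cells held 3 and 2 UMIs in 116 and 93 cells, 5.09 CPM (1.05 to 14.9) and 3.53 CPM (0.427 to 12.7). Monocytes and macrophages held 2 UMIs in 35 cells without butyrate, 5.49 CPM (0.664 to 19.8), and 0 in 34 cells with it. Their log2 ratio over B cells without butyrate was 0.43 (−2.95 to 2.003), so these lineages were not told apart. Of the neutrophils, 2 of 7 without butyrate held 1 UMI each, 78.7 CPM (9.53 to 284), and 0 of 3 with butyrate held any. Cxcr5 and Pdcd1 are markers of T follicular helper (Tfh) cells. The Cxcr5+Pdcd1+ cells were CD4+ T cells with UMIs of both and none of Foxp3. Of these, 0 of 18 and 0 of 17 had a Ffar2 UMI, which allows shares of cells with a UMI of up to 16.7% and 17.6%. Over the alternative filters and definitions of this subset the share reached 4.76% with butyrate and stayed at 0% without. None of the 98 and 87 Foxp3+ CD4+ T cells had a Ffar2 UMI. With a UMI in only 2.10% and 2.19% of B cells, these counts of 0 do not show whether the T cell subsets expressed the receptor. The T cells that carried UMIs of both coreceptors held 1 and 6, and the 6 came from a single cell that also held Cd79a and cycling UMIs.

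Ffar3 was close to the limit of detection, with 10 and 13 UMIs in all. B cells held 10 and 11 of them, each in a different cell, or 0.239% of B cells (0.452 CPM) and 0.277% (0.507 CPM). The 2 UMIs left, both with butyrate, lay in a CD8+ T cell and in a T cell without a coreceptor UMI. The Ffar3 log2 ratio of B cells over CD4+ T cells was 2.64 and 2.75, with lower bounds of −0.58 and −0.45, so these were not told apart. Over CD8+ T cells the lower bounds were 0.55 and 0.24. Most UMIs of both receptors of this chromosome 7 cluster lay in B cells, the lineage with the most cells. Their neighbour Ffar1, which is not a member, was also read there, at 47.2 and 56.7 CPM in B cells (1045 and 1230 UMIs), against 1 and 4 UMIs in CD4+ and 11 and 5 in CD8+ T cells. The Ffar1 log2 ratio between the libraries in B cells was 0.26 (0.14 to 0.38), below the 1.5-fold mark.

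Hcar2 was found in myeloid cells. Of its 23 UMIs without butyrate, 13 lay in neutrophils, in 5 of 7 cells (71.4%, 29.0 to 96.3), whereas 0 of the 3 neutrophils with butyrate had any. The monocytes and macrophages held 4 UMIs in 4 of 35 cells and 6 UMIs in 4 of 34 cells, 10.97 CPM (2.99 to 28.1) and 14.8 CPM (5.44 to 32.2). This level rests on few UMIs, and with each cell reduced to 2000 UMIs none was left with butyrate. Basophils or mast cells held 2 UMIs in 1 of 2 cells and 1 UMI in 1 cell. Among the lymphocytes without butyrate, 1 B cell, 1 CD4+ T cell and 1 T cell without a coreceptor UMI held Hcar2, and with butyrate no lymphocyte did. The totals over the libraries were 23 and 7 UMIs, and 7 and 3 neutrophils are too few to compare. No Cxcr5+Pdcd1+ CD4+ T cell held Hcar2 in either library. With 18 and 17 such cells, this does not show whether they expressed the gene.

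**Figure D1:**
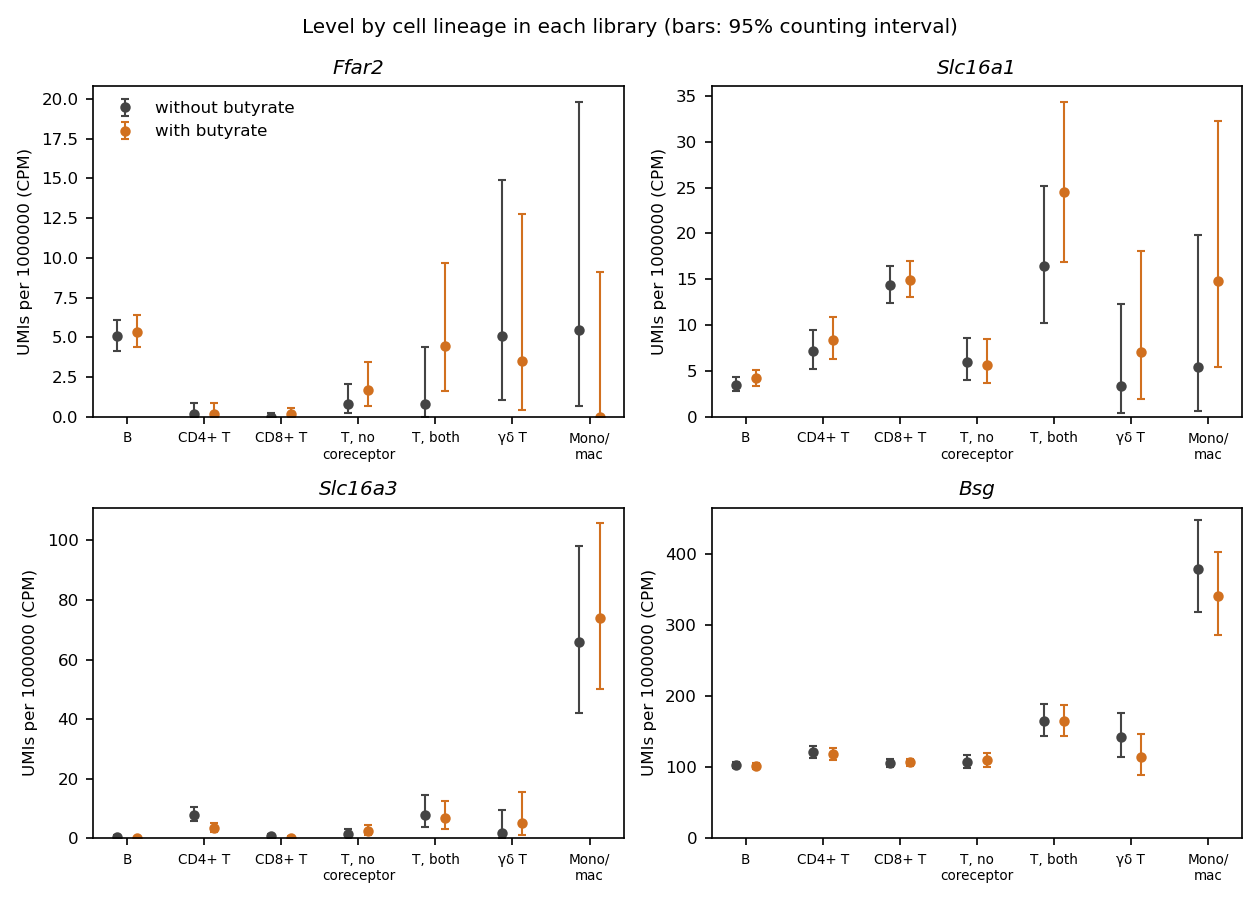
UMIs per 1000000 (y axis, starting at 0 in each panel) of Ffar2, Slc16a1, Slc16a3 and Bsg by cell lineage in the library without butyrate (grey) and with butyrate (orange), with bars for the 95% Poisson interval. Ffar2 stood at 5.06 and 5.34 in B cells, Slc16a1 at 14.4 and 14.9 in CD8+ T cells, and Slc16a3 and Bsg were highest in monocytes and macrophages among the lineages drawn.

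Slc16a1, the proton-coupled transporter found in most tissues, was higher in T cells than in B cells. CD8+ T cells held 207 and 239 UMIs, 14.4 CPM (12.5 to 16.4) and 14.9 CPM (13.1 to 16.96). CD4+ T cells held 47 and 53 UMIs, 7.14 CPM (5.24 to 9.49) and 8.35 CPM (6.26 to 10.9), and B cells 78 and 91 UMIs, 3.52 CPM (2.79 to 4.40) and 4.19 CPM (3.38 to 5.15). The order CD8+ over CD4+ over B was the same in both libraries. The log2 ratio of CD8+ T over B cells was 2.02 (1.64 to 2.42) and 1.83 (1.48 to 2.20), that of CD8+ over CD4+ T cells 0.996 (0.54 to 1.497) and 0.83 (0.40 to 1.30), and that of CD4+ T over B cells 1.02 (0.46 to 1.56) and 0.9999 (0.48 to 1.498). T cells without a coreceptor UMI stood at 5.99 and 5.71 CPM, and those with both coreceptors at 16.5 and 24.5 CPM.

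As shares, 8.95% (7.74 to 10.3) and 10.7% (9.32 to 12.1) of CD8+ T cells held a Slc16a1 UMI, against 3.62% and 4.63% of CD4+ T cells and 1.62% and 2.07% of B cells. In cells reduced to 2000 UMIs the shares were 1.88% and 2.43% of CD8+ T cells, 1.36% and 0.741% of CD4+ T cells, and 0.338% and 0.634% of B cells. The order of the lineages was the same in this single random draw, but with butyrate the CD4+ T and B cell shares lay too close together to rank. Memory or effector CD8+ T cells, with at least 2 UMIs of Ccl5, Cxcr3, Cxcr6 and S100a4 together, stood at 16.9 and 16.6 CPM against 13.4 and 14.1 CPM in the remaining CD8+ T cells, log2 ratios of 0.34 (−0.11 to 0.76) and 0.24 (−0.16 to 0.63).

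Slc16a1 was higher in cycling lymphocytes. Cycling B cells stood at 14.3 and 16.02 CPM against 2.68 and 3.84 CPM in non-cycling B cells, log2 ratios of 2.44 (1.65 to 3.15) and 2.12 (0.95 to 3.01). The 85 and 61 cycling T cells stood at 20.2 and 28.7 CPM against 10.3 and 11.4 CPM in non-cycling T cells, log2 ratios of 0.99 (0.46 to 1.45) and 1.35 (0.86 to 1.78). Cells with a Myc UMI exceeded those without in both lineages, by 1.06 (0.39 to 1.74) and 1.09 (0.46 to 1.71) in B cells and by 0.66 (0.31 to 1.01) and 0.64 (0.32 to 0.95) in T cells. Cycling cells were sequenced more deeply, with medians of 16878 and 14183 UMIs in cycling B cells and 20392 and 21887 in cycling T cells. CPM allows for that depth, and the part of the depth in these differences was not tested.

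**Figure D2:**
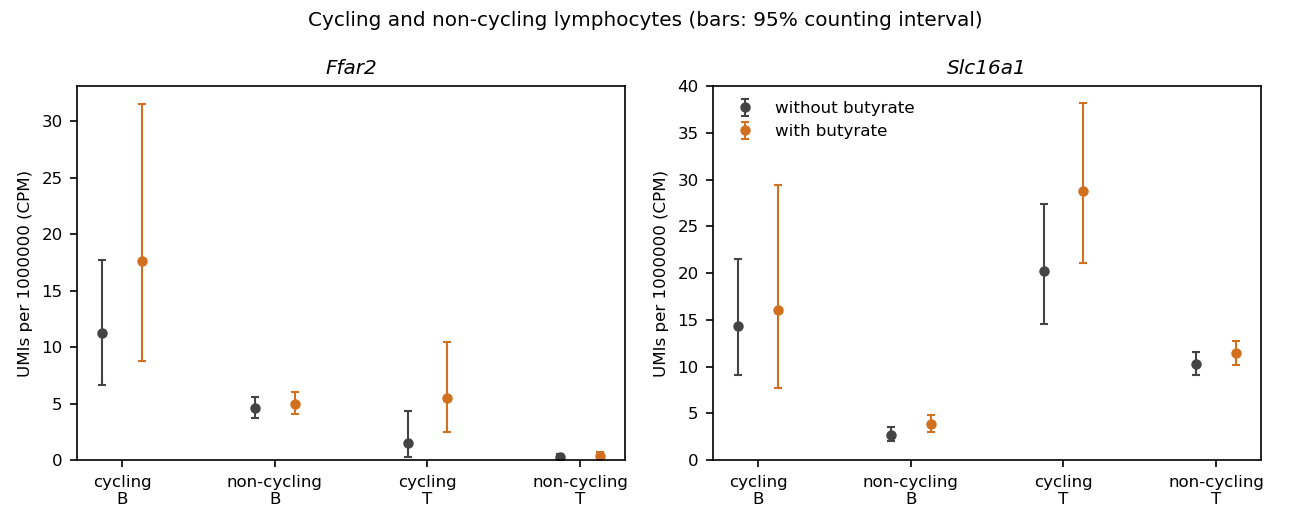
UMIs per 1000000 (y axis) of Ffar2 and Slc16a1 in cycling and non-cycling B and T cells without butyrate (grey) and with butyrate (orange), with bars for the 95% Poisson interval. Cycling B cells stood above non-cycling B cells for both genes in both libraries, at 11.2 and 17.6 against 4.58 and 4.98 for Ffar2 and at 14.3 and 16.02 against 2.68 and 3.84 for Slc16a1.

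Between the libraries the interval of the Slc16a1 ratio included 0 in each of 5 lineages. The log2 ratio with butyrate over without was 0.25 (−0.20 to 0.71) in B cells, 0.22 (−0.37 to 0.82) in CD4+ T cells, 0.06 (−0.22 to 0.33) in CD8+ T cells and −0.06 (−0.91 to 0.75) in T cells without a coreceptor UMI. T cells with both coreceptors gave 0.56 (−0.26 to 1.43). In cells reduced to 2000 UMIs the CD4+ T cell ratio turned to −0.83 (−2.42 to 0.50), and the ratio was 0.88 (−0.09 to 1.96) in B cells and 1.71 (−1.21 to 7.75) in T cells with both coreceptors, so no direction could be read. Over all kept cells the totals were 398 and 461 UMIs, 7.57 and 8.83 CPM, a log2 ratio of 0.22 (0.02 to 0.42). In non-cycling B cells it was 0.52 (0.01 to 1.04), with 55 and 81 UMIs. Both of these intervals end just above 0, before any difference between mice is allowed for.

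Slc16a3, the lactate exporter of glycolytic cells, was highest in myeloid cells. Monocytes and macrophages held 24 UMIs in 10 of 35 cells and 30 UMIs in 9 of 34 cells, 65.8 CPM (42.2 to 98.0) and 74.1 CPM (49.97 to 106), and the 7 and 3 neutrophils held 4 and 2 UMIs. The log2 ratio of monocytes and macrophages over CD4+ T cells was 3.08 (2.30 to 3.78) and 4.47 (3.63 to 5.36). Between the libraries the monocytes and macrophages differed by 0.16 (−0.65 to 1.01) on the log2 scale. With each cell reduced to 2000 UMIs, 27 of these cells were left with butyrate and their level was 18.5 CPM. At that depth this value rests on very few UMIs, so no fall with butyrate could be read. Over all alternatives the level without butyrate ran from 49.7 to 84.6 CPM.

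Among lymphocytes Slc16a3 was higher in CD4+ T cells than in B or CD8+ T cells. There it gave the largest ratio between the libraries of 12 pairs of member and lineage. These pairs had at least 50 UMIs over both libraries, in lineages of at least 100 cells in each. The CD4+ T cells held 52 UMIs in 26 of 1104 cells without butyrate and 21 UMIs in 14 of 950 cells with it, 7.90 CPM (5.90 to 10.4) against 3.31 CPM (2.05 to 5.06). The CD4+ level exceeded that of B cells by 3.71 (2.85 to 4.75) and 4.39 (2.84 to 6.97) on the log2 scale, and that of CD8+ T cells by 3.32 (2.42 to 4.46) and 3.59 (2.16 to 5.73). B cells held 13 and 3 UMIs, and CD8+ T cells 11 and 4, while the T cells with both coreceptors stood at 7.84 and 6.68 CPM. The log2 ratio with butyrate over without in CD4+ T cells was −1.23 (−2.06 to −0.50).

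Many of the Slc16a3 UMIs of CD4+ T cells came from few cells. Over all T cells, cycling cells held Slc16a3 at 22.2 and 12.2 CPM against 1.43 and 1.01 CPM in the others, log2 ratios of 3.95 (3.30 to 4.62) and 3.61 (2.69 to 4.49). The 34 and 26 cycling CD4+ T cells, 3.08% and 2.74% of the CD4+ T cells, held 32 and 9 of the 52 and 21 UMIs, at 42.1 CPM (28.8 to 59.4) and 13.9 CPM (6.37 to 26.5). The other CD4+ T cells, 1070 and 924, held 20 and 12 UMIs, at 3.43 CPM (2.10 to 5.30) and 2.11 CPM (1.09 to 3.68). Without the cycling cells the log2 ratio between the libraries was −0.68 (−1.87 to 0.40). That value still lay past 1.5-fold, and its interval, from 20 and 12 UMIs, includes 0. The cells with a Slc16a3 UMI were also sequenced more deeply, with medians of 11495.5 and 13353.5 UMIs against 5229.5 and 5915 in those without one.

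By subset, the 18 and 17 Cxcr5+Pdcd1+ cells held 12 and 1 Slc16a3 UMIs, in 6 and 1 cells, or 68.6 CPM (35.4 to 120) and 5.40 CPM (0.137 to 30.1). The Foxp3+ cells held 17 and 8 UMIs, 19.9 CPM (11.6 to 31.9) and 9.78 CPM (4.22 to 19.3). The memory or effector cells held 13 and 5 UMIs in 3 of 42 and 2 of 38 cells, 34.8 CPM (18.5 to 59.5) and 14.4 CPM (4.68 to 33.7). The remaining CD4+ T cells held 10 and 7 UMIs in 946 and 808 cells, 1.93 CPM (0.925 to 3.55) and 1.40 CPM (0.563 to 2.89). The 3 subsets lay above these beyond the intervals, except the Cxcr5+Pdcd1+ cells with butyrate, with their single UMI. Several UMIs came from the same cell, which the intervals do not allow for, so they are too narrow for subsets with few positive cells. The Cxcr5+Pdcd1+ cells of the library without butyrate included 1 cell with 6 of their 12 UMIs, and 5 cycling cells that held 8 of them.

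The interferon list stood lower with butyrate in CD4+ T cells and also in other lineages. Its 10 genes, all detected, summed to 1012 CPM in CD4+ T cells without and 550 CPM with butyrate, and the 5 cycling genes to 324 and 204 CPM. The interferon list summed to 414 and 282 CPM in B cells and to 1107 and 625 CPM in CD8+ T cells. In monocytes and macrophages it summed to 1319 and 605 CPM, while Slc16a3 stood there at 65.8 and 74.1 CPM. CD4+ T cells with at least 5 interferon-list UMIs numbered 447 and 233 and held Slc16a3 at 13.1 and 5.52 CPM, and the 657 and 717 with fewer held it at 3.19 and 2.30 CPM. Of the 41 and 11 Slc16a3 UMIs of the first group, 31 and 8 lay in the 25 and 20 cells that were also cycling. The cycling and interferon-list groups thus overlapped in the cells that held most of these UMIs. CD4+ T cells in neither group, 648 and 711, held Slc16a3 at 3.03 and 2.12 CPM. Without the first group the log2 ratio was −0.47 (−1.87 to 0.90). With each cell reduced to 2000 UMIs in a single random draw, 6 of 1100 and 4 of 945 CD4+ T cells held a UMI. The log2 ratio was then −0.02 (−2.09 to 1.93), so the difference was not detectable at that depth. With so few UMIs this value depends on the draw. In a second draw, made for levels only, the level was 1.59 CPM with butyrate and no lower than 2.73 CPM without. Over all alternatives the Slc16a3 level in CD4+ T cells ran from 2.73 to 13.9 CPM without butyrate and from 1.59 to 5.89 CPM with it. The part of cycling, interferon response and depth in the difference was not tested.

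**Figure D3:**
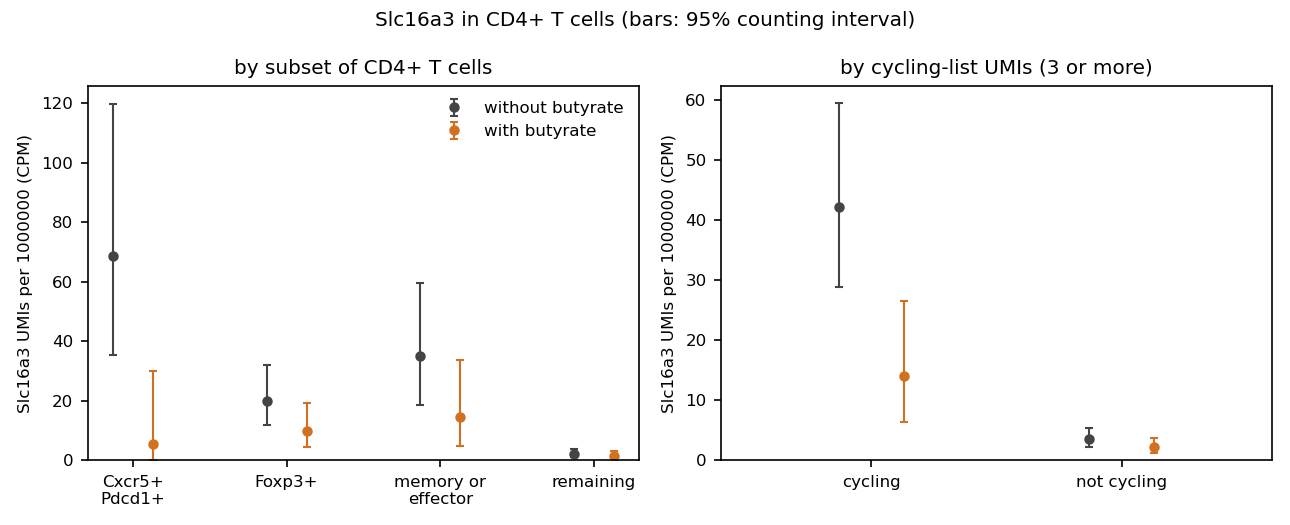
Slc16a3 UMIs per 1000000 (y axis) in subsets of CD4+ T cells (left) and in CD4+ T cells with and without 3 or more cycling-list UMIs (right), without butyrate (grey) and with butyrate (orange), with bars for the 95% Poisson interval. Cycling CD4+ T cells stood at 42.1 and 13.9, the others at 3.43 and 2.11.

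Slc5a8 had 0 UMIs in both libraries, in 8774 and 8013 cells. Shares of cells with a UMI up to 0.0342% and 0.0374% remain possible. The sodium-coupled transporter, best known from colon and kidney epithelium, was not detectable at this depth.

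Bsg was read in every lineage with at least 3 cells in each library. It held 6134 and 5881 UMIs over all kept cells, 117 and 113 CPM, and 42.8% and 46.4% of cells had a UMI. In B cells it stood at 102.4 and 102.1 CPM, in CD4+ T cells at 121.5 and 118.5 CPM and in CD8+ T cells at 105.9 and 106.8 CPM. These main lymphocyte lineages lay within a narrow range. T cells with both coreceptors stood higher, at 165.5 and 164.7 CPM, and the γδ T cells stood at 142.5 and 114.6 CPM. CD4+ T cells exceeded B cells by 0.25 (0.13 to 0.36) and 0.22 (0.09 to 0.33) on the log2 scale, and CD8+ T cells and B cells were not told apart, at 0.05 (−0.05 to 0.14) and 0.07 (−0.03 to 0.16).

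Plasma cells and monocytes and macrophages held more Bsg. Monocytes and macrophages stood at 379 and 341 CPM, 1.89 (1.63 to 2.13) and 1.74 (1.48 to 1.99) above B cells on the log2 scale. Plasma cells stood at 386 CPM (40 cells) and 251 CPM (12 cells), a log2 ratio between the libraries of −0.61 (−0.94 to −0.31). With 12 cells in one library this value rests on few cells. The plasma cells of the libraries also differed in other sums. The cycling genes summed to 703 and 1215 CPM, the B cell markers to 817 and 1669 CPM and the interferon list to 965 and 416 CPM. The part of these differences in the Bsg ratio was not tested. Cycling T cells held Bsg at 257 and 259 CPM against 102 and 104 CPM in non-cycling T cells, log2 ratios of 1.33 (1.19 to 1.46) and 1.32 (1.17 to 1.46). Among CD4+ T cells the Foxp3+ cells (187 and 191 CPM), memory or effector cells (228 and 219 CPM) and Cxcr5+Pdcd1+ cells (234 and 162 CPM) all lay above the remaining cells (99.2 and 98.1 CPM).

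In the 5 lineages with at least 100 cells in each library, the Bsg log2 ratio between the libraries lay between −0.04 and 0.03. It was −0.00 (−0.09 to 0.08) in B cells, −0.04 (−0.18 to 0.11) in CD4+ T cells and 0.01 (−0.09 to 0.11) in CD8+ T cells. These are the narrowest intervals of the members. In the 37 cycling B cells with butyrate Bsg stood at 92.9 CPM against 137 CPM in the 79 without, a log2 ratio of −0.55 (−0.999 to −0.13).

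In lineages of at least 100 cells in each library, 12 pairs of member and lineage had at least 50 UMIs over both. Of these pairs 1 lay past 1.5-fold, Slc16a3 in CD4+ T cells. Smaller lineages were left out of this count, among them plasma cells, where Bsg stood at −0.61. Of all genes with at least 50 UMIs, 4.39% lay past 1.5-fold in CD4+ T cells, where 3 members had enough UMIs, and 2.69% were lower with butyrate. In B cells 0 of 3 members lay past it against 3.97% of all genes, and in CD8+ T cells 0 of 2 against 3.15%. In T cells without a coreceptor UMI it was 0 of 2 against 5.78%, and in those with both coreceptors 0 of 2 against 8.26%. The count of members is too small to set apart from these backgrounds. Ffar3, Hcar2 and Slc5a8 had too few UMIs in every one of these lineages.

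**Figure D4:**
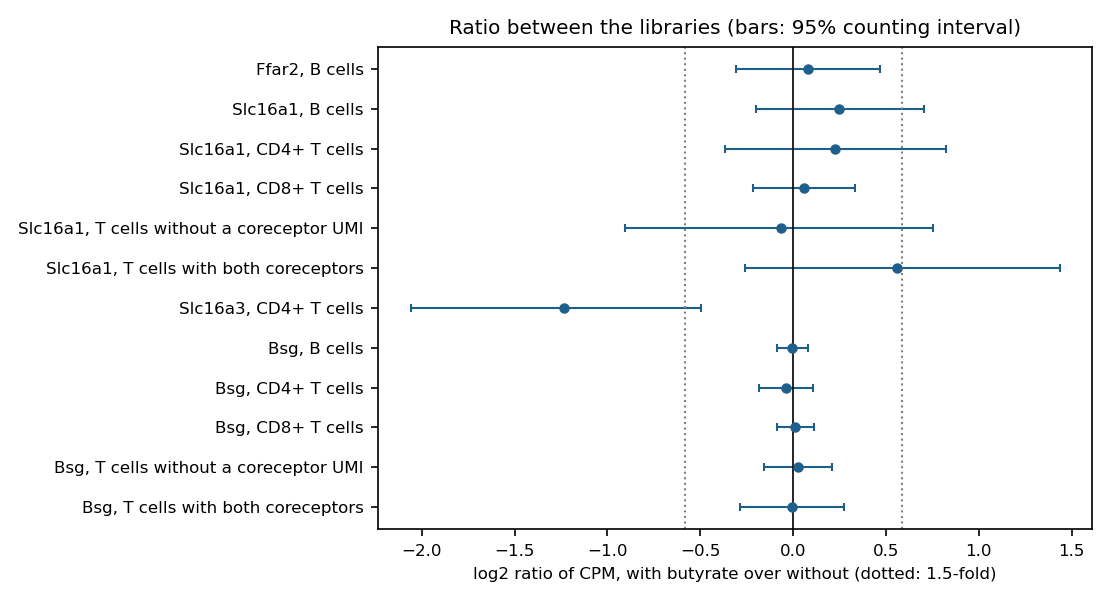
Log2 ratio of CPM with butyrate over without (x axis) for 12 pairs of member and lineage, with bars for the 95% counting interval. The pairs had at least 50 UMIs over both libraries, in lineages of at least 100 cells in each. Dotted lines stand at 1.5-fold. Slc16a3 in CD4+ T cells, at −1.23, lay beyond a dotted line, and the Bsg values lay between −0.04 and 0.03.

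Other genes of these families were taken from 4 lists of 35 genes. Of 7 other metabolite receptors 4 had a UMI, and the fatty acid receptor Ffar4 was read in dendritic cells (2 and 9 UMIs) and the medium-chain fatty acid receptor Gpr84 in monocytes and macrophages (5 and 1 UMIs). Of 10 G proteins and arrestins, through which the receptors signal, 8 had enough UMIs over all kept cells and 0 lay past 1.5-fold, against 5.06% of all genes. Their median log2 ratio was 0.07, against 0.02 over all genes, and Gnai2, the inhibitory G protein subunit, stood at 484 and 509 CPM.

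Of 13 other monocarboxylate transporters 10 had a UMI, and 6 had enough over all kept cells, 0 of them past 1.5-fold, against 5.06% of all genes. Slc16a5 (MCT6) was read in T cells and hardly in B cells, which held 2 and 1 UMIs. In CD4+ T cells Slc16a5 held 43 and 63 UMIs, 6.53 and 9.93 CPM, a log2 ratio of 0.60 (0.02 to 1.20), and in CD8+ T cells 99 and 154 UMIs, 6.86 and 9.63 CPM, a log2 ratio of 0.49 (0.11 to 0.87). Its ratio was past 1.5-fold in CD4+ T cells and in T cells without a coreceptor UMI, 0.59 (−0.19 to 1.40), and not in CD8+ T cells. Of all genes 4.39% lay past it in CD4+ T cells and 5.78% in T cells without a coreceptor UMI. In each of these lineages 2 genes of this list had enough UMIs. Of the Slc16a7 (MCT2) UMIs, 83 of 91 and 90 of 102 lay in B cells.

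All 5 partners of transporters had enough UMIs and 0 lay past 1.5-fold over all kept cells, against 5.06% of all genes. Emb (embigin), the partner of MCT2, stood lower with butyrate in each main lymphocyte lineage, at 389 and 342 CPM in CD4+ T cells (log2 ratio −0.19, −0.27 to −0.11), 399 and 349 CPM in CD8+ T cells (−0.19, −0.25 to −0.14) and 12.1 and 8.75 CPM in B cells (−0.46, −0.74 to −0.19). For Bsg, its relative, the intervals of the ratio in these lineages all included 0.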

How the data were processed

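Single-cell RNA was measured in 2 libraries (10x Genomics 3′ kit), 1 per condition. The authors made the deposited counts with Cell Ranger 6.0.1 on mm10, as raw UMI counts per gene and cell, without normalization. Kept cells had at most 10% mitochondrial UMIs and at least 200 genes, which left out 186 and 327 cells. Doublets were scored with Scrublet in scanpy 1.11.5, and the top 0.8% for each 1000 cells of a library were dropped (721 and 592 cells). Lineages needed at least 2 marker UMIs and 80% of a cell's marker UMIs, so the names are rebuilt. UMIs were summed per lineage and library and given per 1000000 (CPM). Ratios used 0.5 added UMIs, and all genes with at least 50 UMIs over both libraries, in lineages of at least 100 cells in each, were the background. Cells were also thinned to 2000 UMIs, leaving out 101 and 57. Ratios and shares in thinned cells come from a single random draw. A count of 0 allows 3 counts.

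The 7 members and all lists were chosen with earlier results of these data known. Genes named are the members, the lists and, for members with at least 200 UMIs, the 5 genes most like each. Simulated data with known ratios were used to test the code. The tools were Python 3.11.15, numpy 2.4.6, pandas 2.3.3, scipy 1.17.1 and matplotlib 3.10.9. Of the gene identifiers 31011 were in GENCODE M21. Alternatives covered doublets, filters, lineage rules, scaling, depth, added counts and minimum UMIs. One cell subset and 1 gene of the lists are not reported here.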

Additional observations from a re-analysis of the deposited data

How the results depend on the processing

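Of 578 alternative values for 53 results, 495 stayed the same, 83 moved, and the ratio past 1.5-fold, Slc16a3 in CD4+ T cells, kept its sign. Of the 350 values for levels 53 moved, mostly when cells were thinned or when scaling left out ribosomal, mitochondrial and immunoglobulin genes. The Hcar2 level in monocytes and macrophages ran from 8.67 to 51.7 CPM without and from 0 to 19.6 CPM with butyrate. That of Slc16a3 ran from 49.7 to 84.6 CPM without and from 18.5 to 97.9 CPM with butyrate. For the ratios between the libraries 155 of 168 stayed the same. Slc16a1 in CD4+ T cells, at 0.22, turned its sign under thinning. The other ratios that changed sign under an alternative, of Slc16a1 in T cells without a coreceptor UMI and of Bsg, were reported close to 0. With each cell thinned to 2000 UMIs the log2 ratio was 0.62 for Ffar2 in B cells, 0.88 for Slc16a1 in B cells, −0.83 for Slc16a1 in CD4+ T cells, 1.71 for Slc16a1 in T cells with both coreceptors, −0.022 for Slc16a3 in CD4+ T cells, −0.12 for Bsg in CD8+ T cells and 0.34 for Bsg in T cells with both coreceptors. Thinning leaves fewer UMIs, and these ratios rest on a single random draw, so they can change with the draw. A second draw was made for levels only. With butyrate it gave the lowest level of all alternatives for Ffar2 in B cells and for Slc16a3 in CD4+ T cells. With 10 CPM added Slc16a3 in CD4+ T cells gave −0.43, which draws low genes to 0. Placing lineages by single genes gave −0.13 for Bsg in B cells and −0.42 in T cells with both coreceptors. Without cells with at least 5 interferon-list UMIs, an alternative chosen after seeing the data, the ratio was −0.47 for Slc16a3 in CD4+ T cells, 1.82 for Slc16a1 and 0.53 for Bsg in T cells with both coreceptors, and the cause was not tested.

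Genes past 1.5-fold numbered 410 in B, 388 in CD4+ T, 306 in CD8+ T cells, 469 in T cells without a coreceptor UMI and 430 in T cells with both. In that order they numbered 36, 50, 29, 72 and 187 with 10 CPM added, 131, 79, 73, 66 and 49 with at least 200 UMIs, and 1214, 1224, 1124, 1437 and 1877 with at least 10. Thinned cells gave 256 in B cells and 112 in T cells with both coreceptors. No paired analysis was possible because each condition has 1 library.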

Other observations

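The genes whose level over 7 lineages in 2 libraries was most like that of each member are given as a description. The 14 points share libraries and depth. March3 (Pearson r of log2(CPM + 1) 0.92) and Foxred1 (0.87) were closest to Ffar2, ahead of Tmem67, Ube2d2a and Zbed4. Slc25a4, the mitochondrial ADP/ATP carrier (0.93), and Ppid (0.84) were closest to Slc16a1, ahead of Slc7a5, Cenpv and Dusp19. Blvra (0.98), Anxa2, Ndufb9, Dhrs3 and Gm14005 were closest to Slc16a3, and Sem1 (0.98), Cox6b1, Tmem14c, Uqcr11 and Ctsb to Bsg.

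In cells thinned to 2000 UMIs, 0 of 32 and 0 of 43 B cells with a Ffar2 UMI also held Slc16a1, against 0.341% and 0.641% of the B cells without Ffar2, shares too small to tell apart at these cell numbers. Bsg was held by 25.0% and 16.3% of the Ffar2+ B cells and by 17.2% and 17.7% of the others.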
